A study of Caenorhabditis elegans with 10 samples.

Results

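The genes clx-1, smf-2, Y57E12B.1, Y57E12B.4 and H02F09.3 of Caenorhabditis elegans gave a high array signal in fasted mlk-1 mutants and a low one in the other conditions of the series. They are 5 of the 17118 genes that the platform annotation pairs with a probe set of their own, and they were found by their annotated symbol on 6 of 22548 tested probe sets. Y57E12B.4 has 2 probe sets and each of the others has 1. The genes were chosen for this pattern, so their levels over the 4 groups of strain and food are a description. No p is given for them, and where the fit over all probe sets called them, nothing is read from it.

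Total RNA of adults was read on 10 single-colour arrays with biotin-labelled target. The groups were fasted mlk-1 mutants (2 arrays), fed mlk-1 mutants (2), fasted mek-1 mutants (3) and fed mek-1 mutants (3). Per the labels, adults of day 2 were kept for 2 more days with the bacterium OP50-1 as food (fed) or without it (fasted), and RNA is of adults of day 4. The labels name the mutated gene but no allele, every animal carried a mutation in the cascade, and wild-type animals were not analysed here. Whether replicates came from separate cultures is not stated, so a p reflects the spread of these arrays alone, which may be technical.

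MLK-1 and MEK-1 are kinases of one JNK-type MAP kinase cascade, MLK-1 acting above MEK-1, and the cascade ends in the kinase KGB-1. Animals without food stop drawing on bacterial nutrients and switch to stored lipid. SMF-2 is a transporter of the NRAMP family, which uses a proton gradient to carry divalent metals such as manganese and iron across membranes and whose mammalian member DMT1 takes up dietary iron. The tables used here give the other 4 genes a name but no function. The RefSeq annotation places clx-1 (sequence name C50F7.2) on chromosome IV, Y57E12B.4 and Y57E12B.1 side by side on chromosome V, and H02F09.3 and smf-2 (K11G12.3) on chromosome X.

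Values are linear intensities, whose lowest value is just above 16 on every array and whose array medians ran from 70.5 to 74.9. The mek-1 transcript gave 1350 and 1387 in fasted mlk-1 animals, 1138 and 1137 in fed mlk-1 animals, 66.5 to 72.5 in fasted mek-1 animals and 119.2 to 139 in fed mek-1 animals, so it was low in both groups labelled mek-1. The mlk-1 transcript gave no such check: one of its probe sets gave 186 and 232 in fasted mlk-1 animals, 167 and 184 in fed mlk-1 animals, 128 to 167 in fasted mek-1 animals and 149 to 197 in fed mek-1 animals. Its other probe set gave 146 and 139 in fasted mlk-1 animals and 132 and 135 in fed mlk-1 animals. It gave 84.6 to 118 in fasted mek-1 animals and 117 to 156 in fed mek-1 animals. The kind of mutation in mlk-1 is not known here, and a probe set outside the altered part would check nothing. Markers of the tissues of an adult were present in all groups. The summed markers of sperm, oocyte and germline, early embryo, intestine, body wall muscle, pharynx, neurons, and coelomocyte and gonad sheath in the fasted mlk-1 arrays overlapped the range of the other 8 arrays, apart from those of epidermis. Within mlk-1 some moved with food. The 12 intestinal markers summed to 25601 and 25964 in fasted mlk-1 animals, against 40887 and 45891 in fed mlk-1 animals, with 3 of 12 called lower (5 of 12 in mek-1). Body wall muscle markers summed to 4396 and 4629 in fasted mlk-1 animals, against 5440.1 and 5717 in fed mlk-1 animals, with 0 of 10 called (3 lower in mek-1). Neuronal markers summed to 4393 and 4417 in fasted mlk-1 animals, against 3390.0 and 3675 in fed mlk-1 animals, with 0 of 11 called. Of all probe sets, 0.852% were called lower and 0.519% higher with fasting in mlk-1, by the fit given below. In mek-1 these shares were 3.23% and 1.31%. A count of 0 called in mlk-1 is thus near the background. The 10 epidermal markers summed to 6802 and 6938 in fasted mlk-1 animals, 8328 and 11634 in fed mlk-1 animals, 6977 to 11088 in fasted mek-1 animals and 10304 to 13041 in fed mek-1 animals. Their part in the values below was not tested, and in RNA of whole animals fewer cells of a type and less RNA per cell cannot be told apart.

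The gene clx-1 had the largest change of the 5. It gave 3253 and 4743 in fasted mlk-1 animals, against 59.3 and 73.5 in fed mlk-1 animals. In fasted mek-1 animals it gave 65.6, 61.3 and 58.8, against 69.8, 59.8 and 71.4 in fed mek-1 animals. Both fasted mlk-1 arrays stood far above every other array, and the other 3 groups overlapped one another. The mean intensity was 60.2 times that of fed mlk-1 animals and 64.6 times that of fasted mek-1 animals, while the 8 other arrays differed among themselves by at most 1.25-fold. On the log2 scale with a constant of 16 added, the change with fasting was 5.59 ± 0.17 in mlk-1 (SE of the limma fit, 2 against 2 arrays) and -0.09 ± 0.14 in mek-1 (3 against 3).

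The metal transporter gene smf-2 gave 334 and 320.4 in fasted mlk-1 animals, against 33.3 and 32.3 in fed mlk-1 animals. Fasted mek-1 animals gave 32.8, 31.6 and 34.7, against 31.996, 26.97 and 32.98 in fed mek-1 animals. The fasted mlk-1 arrays differed from each other by less than for any other of the genes (ratio of array 2 to array 1, 0.959), and the other 8 arrays lay together just above the lower end of the scale. The ratio of mean intensities was 9.97 between fasted and fed mlk-1 animals and 1.08 between fasted and fed mek-1 animals. The log2 change was 2.81 ± 0.09 in mlk-1 and 0.07 ± 0.07 in mek-1.

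The neighbouring genes Y57E12B.1 and Y57E12B.4 were at or near the lowest value of the scale outside fasted mlk-1 animals. Y57E12B.1 gave 372 and 456 in fasted mlk-1 animals, against 23.2 and 16.03 in fed mlk-1 animals. It gave 20.8, 19.5 and 18.7 in fasted mek-1 animals, against 23.2, 16.07 and 18.5 in fed mek-1 animals. The first probe set of Y57E12B.4 gave 169.9 and 189 in fasted mlk-1 animals, against 23.7 and 19.2 in fed mlk-1 animals. It gave 22.5, 25.4 and 22.1 in fasted mek-1 animals, against 21.2, 19.2 and 18.6 in fed mek-1 animals. The second gave 229 and 217 in fasted mlk-1 animals, against 23.8 and 18.7 in fed mlk-1 animals. It gave 23.4, 22.7 and 23.8 in fasted mek-1 animals, against 22.4, 20.97 and 21.7 in fed mek-1 animals. In all 3 probe sets the fasted mlk-1 arrays were alone at a high value. Values this close to the lower end show a low signal and do not resolve differences between the remaining groups.

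The log2 change of Y57E12B.1 with fasting was 3.60 ± 0.14 in mlk-1 and 0.02 ± 0.11 in mek-1. For Y57E12B.4 it was 2.38 ± 0.10 and 2.69 ± 0.09 in mlk-1 by its 2 probe sets, against 0.14 ± 0.08 and 0.06 ± 0.07 in mek-1. These sizes depend on the constant added, since the low values lie near the lower end of the scale: the change of Y57E12B.1 in mlk-1 was 4.35 with a constant of 1 and 2.51 with a constant of 64. Probe sets whose ID ends in _x_at (Y57E12B.1) or _s_at (one of Y57E12B.4) can bind more than one transcript. Y57E12B.4 has a probe set without such an ending, and Y57E12B.1 does not.

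H02F09.3 differed from the other 4 genes in its levels outside fasted mlk-1 animals. It gave 744 and 594 in fasted mlk-1 animals, against 180.0 and 105 in fed mlk-1 animals. It gave 78.8, 59.9 and 80.8 in fasted mek-1 animals, against 98.0, 78.6 and 104 in fed mek-1 animals. Both fed mlk-1 arrays lay above all mek-1 arrays, the lower one by little, so the order of group means was fasted mlk-1, fed mlk-1, fed mek-1 and fasted mek-1. The ranges of the last 2 groups overlapped. The ratio of fed mlk-1 to fed mek-1 animals was 1.52, against 0.978 to 1.09 for the other 5 probe sets, and the 8 arrays outside fasted mlk-1 spanned a 3.00-fold range, against 1.25-fold to 1.45-fold. The log2 change with fasting was 2.14 ± 0.23 in mlk-1 and -0.30 ± 0.19 in mek-1. A rise in fasted mlk-1 animals alone therefore describes clx-1, smf-2, Y57E12B.1 and Y57E12B.4, while H02F09.3 also stood somewhat higher in fed mlk-1 animals.

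**Figure D1:**
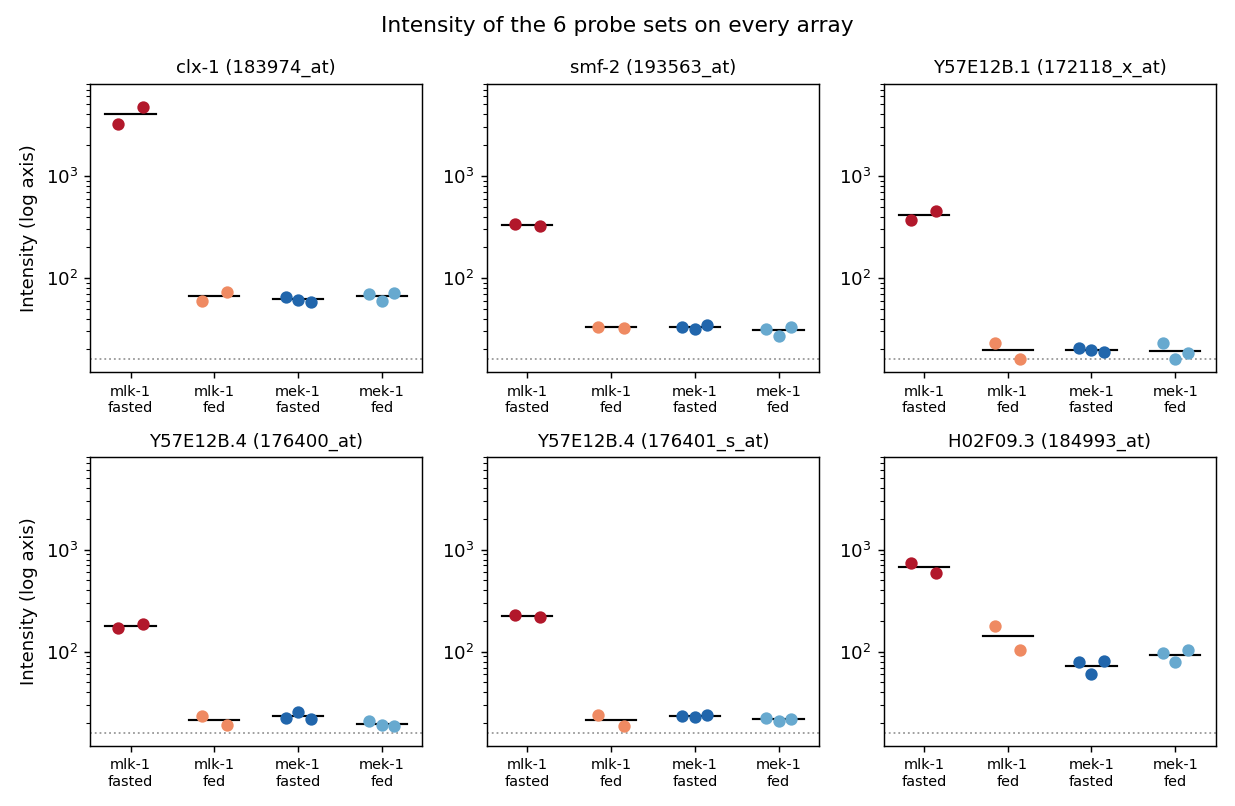
Intensity (log axis) of the 6 probe sets of the 5 genes on each of the 10 arrays, 1 point per array, with a bar at the mean of each group of 2 or 3 arrays and a dotted line at the lower end of the scale, 16. The fasted mlk-1 arrays are the highest in every panel, and in H02F09.3 the fed mlk-1 arrays (180.0 and 105) lie above the mek-1 arrays.

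The 5 genes were then set against all 22548 probe sets. In limma with Benjamini-Hochberg adjustment over all of these, 117 probe sets (0.519%) were higher and 192 (0.852%) lower with fasting in mlk-1, and all 6 of the genes' probe sets were among the higher ones. With fasting in mek-1, 295 (1.31%) were higher and 728 (3.23%) lower, and the genes' probe sets were in neither group. The change in mlk-1 exceeded the change in mek-1 in 14 probe sets (0.0621%) and fell short of it in 3 (0.0133%), and the 6 were among the 14. Between strains, 295 (1.31%) were higher in fasted mlk-1 than in fasted mek-1 animals, the 6 included. In fed animals 136 (0.603%) differed between the strains in either direction, none of them from these genes. The genes were chosen by these contrasts, so nothing is read from the counts of their probe sets.

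With the replicate number as a block the 5 contrasts, in the order given, called 1316, 3272, 50, 1033 and 427 probe sets, against 309, 1023, 17, 330 and 136 without it. H02F09.3 was then also called between fed mlk-1 and fed mek-1 animals. Leaving out mlk-1 fed array 2 gave 30 calls in place of 17 for the difference of the changes. The count was 7 without mlk-1 fasted array 1, mlk-1 fasted array 2 or mek-1 fed array 1, and 10 without mek-1 fed array 2. It was 6, 11 and 8 without mek-1 fasted arrays 1, 2 and 3.

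**Figure D2:**
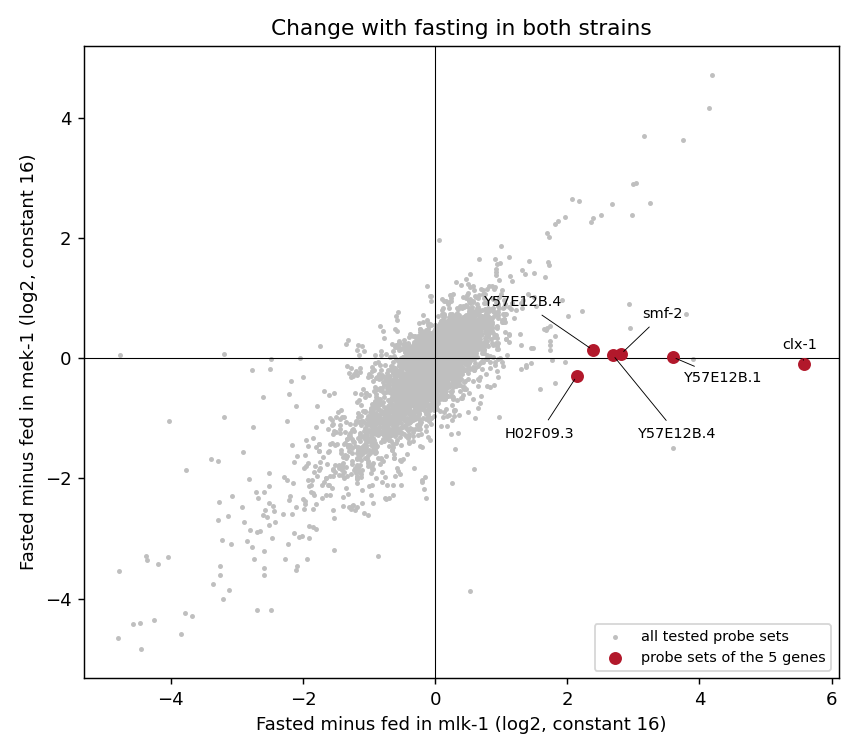
Log2 change with fasting in mlk-1 (x axis, 2 against 2 arrays) and in mek-1 (y axis, 3 against 3 arrays) for all 22548 tested probe sets (grey) and for the probe sets of the 5 genes (red). The red points lie between 2.14 and 5.59 on the x axis and between -0.30 and 0.14 on the y axis.

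Of the 14 probe sets whose change in mlk-1 was above that in mek-1, the 8 that did not belong to the 5 genes were of more than one kind. In 5 of them the signal fell with fasting in mek-1 past the threshold, so that the difference came at least in part from mek-1. Among these 5 was the probe set of mek-1, the gene mutated in that strain, whose low values are given above. In 3 of the 8, both fasted mlk-1 arrays lay at least 1 log2 unit above all other arrays, as did the probe sets of the 5 genes. One of these 3 was ins-11, a gene of an insulin-like peptide, and the other 2 pair with several gene symbols.

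A gap was computed for every probe set as the lower of the fasted mlk-1 arrays minus the highest of the other 8, in log2. It was above 0 in 1778 of 22548 probe sets (7.89%) and at least 1 in 21 (0.0931%), the 6 of these genes included. The gaps were 5.19 for clx-1 (rank 1), 3.31 for Y57E12B.1 (rank 3), 2.73 for smf-2 (rank 4), 2.55 and 2.17 for Y57E12B.4 (ranks 5 and 6) and 1.64 for H02F09.3 (rank 9). Gaps against values near the lower end of the scale, as for Y57E12B.1 and Y57E12B.4, depend on the constant, although the 6 probe sets stayed within ranks 1 to 9 with constants of 1 and 64. Rank 2, at 3.45, was a probe set that pairs with several symbols. The opposite pattern, both fasted mlk-1 arrays at least 1 below all others, was seen in 2 probe sets. Without mlk-1 fasted array 1 the count at a gap of at least 1 was 34.

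Of the other probe sets with a gap of at least 1, the one at rank 2 gave 422 and 681 in fasted mlk-1 animals and 16.02 to 24.2 on the other 8 arrays. The saposin-like gene spp-27 gave 1400 and 1797 in fasted mlk-1 animals, 96.2 and 103 in fed mlk-1 animals, and 134, 385 and 93.7 in fasted mek-1 animals, against 83.4 to 104 in fed mek-1 animals. One fasted mek-1 array was thus raised as well. The gene dod-6 gave 2735 and 2987 in fasted mlk-1 animals, 1045 and 851 in fed mlk-1 animals, 522, 925 and 405 in fasted mek-1 animals, and 683 to 1005 in fed mek-1 animals. The gap was 1.78 for Y60C6A.1, 1.52 for ins-11, 1.502 for srlf-30, 1.22 for the otopetrin-like gene otpl-6, 1.18 for Y18D10A.23 and 1.16 for both T05E12.6 and pals-26. It was 1.08 for pmp-5, a gene of a peroxisomal ABC transporter.

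**Figure D3:**
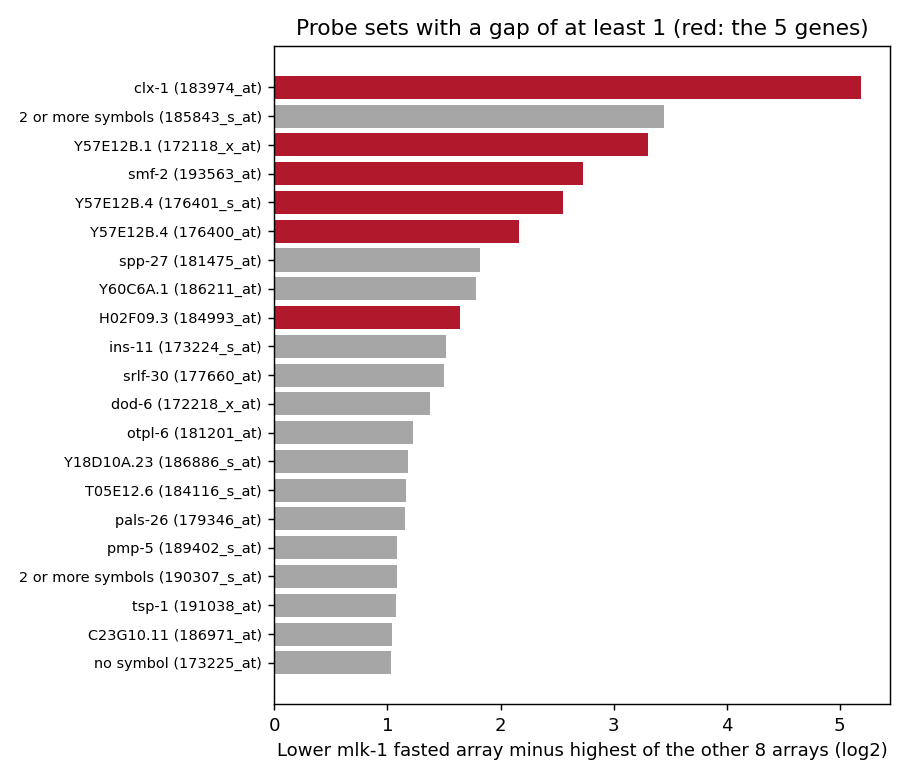
Gap in log2 (the lower fasted mlk-1 array minus the highest of the other 8 arrays) of the 21 probe sets in which it was at least 1, with the probe sets of the 5 genes in red and the others in grey. clx-1 stands at 5.19 and H02F09.3, the lowest of the 5 genes, at 1.64.

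The 15 pairs of the 6 probe sets correlated at 0.942 to 0.998 over the 10 arrays (Pearson's r of log2 values), which the shared step between fasted mlk-1 and the rest sets. On each array, the probe sets of a pair were read in the same RNA. Over the 8 other arrays alone, r ran from -0.618 (clx-1 and a Y57E12B.4 probe set) to 0.722 (Y57E12B.1 and a Y57E12B.4 probe set). It was above 0 in 11 of the 15 pairs. In this comparison the values lie near the lower end of the scale, except in clx-1 and H02F09.3. Within the fasted mlk-1 group array 2 was the higher for clx-1 (1.46 times array 1), Y57E12B.1 (1.23) and one Y57E12B.4 probe set (1.11). It was the lower for H02F09.3 (0.798), smf-2 (0.959) and the other Y57E12B.4 probe set (0.949). These 2 arrays thus did not differ in one direction over the 5 genes.

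Outside the 5 genes, the most similar profiles by Pearson's r over the 10 arrays, among 2677 probe sets with a range of at least 1 log2 unit, came from few genes. The step between fasted mlk-1 and the other arrays, for which the 5 genes were chosen, sets these values too. The lists of the 6 probe sets are therefore not independent of one another or of the gaps above. The insulin-like gene ins-11 and srlf-30 were among the 5 most similar for all 6 probe sets, with r from 0.940 to 0.983 and from 0.931 to 0.975. The peroxisomal transporter gene pmp-5 was among them for 5 probe sets (0.952 to 0.969), pals-26 for 4 (0.952 to 0.969) and sod-3, a mitochondrial manganese superoxide dismutase, for 3 (0.947 to 0.961). The gene ins-11 gave 459 and 319 in fasted mlk-1 animals, 76.5 and 96.3 in fed mlk-1 animals, 79.7 to 90.03 in fasted mek-1 animals and 74.6 to 101 in fed mek-1 animals. The chemoreceptor gene srh-237, otpl-6, rnh-1.3 and T05E12.6 completed the lists, each for 1 probe set (0.926 to 0.954).

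It was next asked whether the signal extended to adjacent genes. The 3 protein-coding genes on each side of each member in the RefSeq annotation gave 24 other genes, of which 21 were measured by 27 probe sets. Of these 27, 0 were higher and 1 was lower with fasting in mlk-1 (4 and 2 at an unadjusted p under 0.05, limma). Over all probe sets these shares were 0.519% and 0.852% adjusted, and 8.05% and 4.03% unadjusted, so 0 higher of 27 is near the background and is no result about these genes. None of the 27 differed between the strains in their change (0 at an unadjusted p, against 2.61% higher and 1.14% lower over all). Their median change in mlk-1 was 0.02, against 0.04 over all probe sets. With the replicate block, klo-1 was also higher with fasting in mlk-1, and klo-1, K11G12.6 and K06A9.2 were higher in mek-1. Of all 22548 probe sets the block called 742 higher in mlk-1 and 1749 in mek-1, so nothing is read from these few calls.

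None of the 27 had a gap of at least 1 in the sense given above, and the largest gap was 0.24, for klo-1. smf-1, the paralog that follows smf-2, gave 553 and 480 in fasted mlk-1 animals, against 440.0 and 403 in fed mlk-1 animals, a change of 0.28 ± 0.23 (adjusted p = 0.742, limma). nas-11, an astacin-type metalloprotease gene whose annotated span overlaps that of smf-2, fell with fasting in both strains, by 2.23 ± 0.29 in mlk-1 (adjusted p = 0.00589) and by 2.02 ± 0.23 in mek-1 (adjusted p = 0.00175, limma). In mlk-1, nas-11 missed the threshold without mlk-1 fed array 2 (0.0665) and without mlk-1 fasted array 2 (0.0727). H02F09.2, whose span overlaps that of H02F09.3, gave 24.7 and 23.97 in fasted mlk-1 animals and 19.6 to 23.8 in the other groups. C50F7.3, beside clx-1, gave 27.6 in both fasted mlk-1 arrays and 24.4 to 34.2 elsewhere. Y57E12B.10, Y57E12B.11 and T07H8.11, which lie next to or near Y57E12B.4 and Y57E12B.1, have no probe set with their gene ID, so how far the signal reaches there was not measured.

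**Figure D4:**
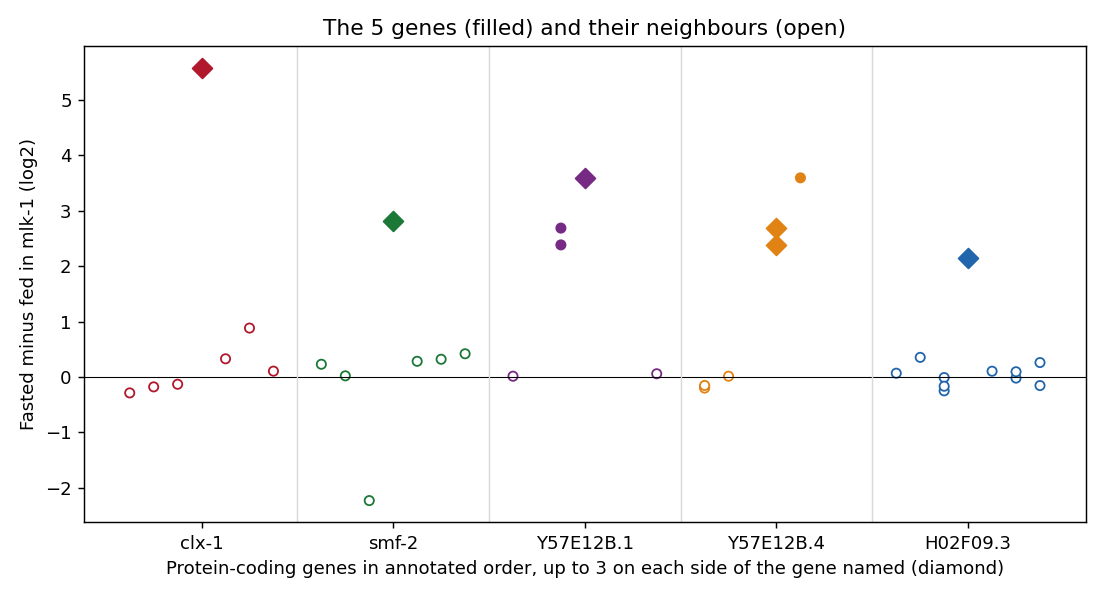
Log2 change with fasting in mlk-1 animals of the probe sets of each of the 5 genes (diamonds) and of the measured genes among the 3 protein-coding genes on each side (open circles, or filled circles where the adjacent gene is itself one of the 5), in annotated order, not to scale. The diamonds lie between 2.14 and 5.59, and the open points between -2.23 (nas-11, next to smf-2) and 0.88 (klo-1, near clx-1).

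Other genes of metal transport and storage were examined beside smf-2. Of 28 measured genes, 0 rose and 0 fell with fasting in mlk-1 after adjustment over all probe sets (4 and 2 at an unadjusted p under 0.05, limma, against 8.05% and 4.03% over all probe sets), and their median change was 0.02, against 0.04 over all probe sets. In mek-1 the ferritin gene ftn-2 fell by 0.56 ± 0.09 (adjusted p = 0.00933) and the ferroportin gene fpn-1.1 fell by 1.52 ± 0.22 (adjusted p = 0.00559, limma), and 0 rose. Over all probe sets 3.23% were lower and 1.31% higher with fasting in mek-1. The difference between the strains passed in 0 of the 28 (4 higher and 1 lower at an unadjusted p, against 2.61% and 1.14% over all).

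Of the 28 genes, 5 also had both fasted mlk-1 arrays above all others, against 7.89% of all probe sets. They were ftn-1 (gap 0.28), mtl-1 (0.27), zipt-7.2 (0.18), smf-1 (0.12) and hrg-1 (0.07), against a gap of 2.73 for smf-2. Such a gap above 0 was not particular to metal genes. In the lists read below it was found in 10 of 23 genes of the intracellular pathogen response and 7 of 16 DAF-16 targets. It was also found in 1 of 15 heat shock proteins and 3 of 21 fasting response genes. smf-3 gave 66.7 and 42.9 in fasted mlk-1 animals, 64.8 and 42.6 in fed mlk-1 animals, 48.1 to 52.9 in fasted mek-1 animals and 27.5 to 40.55 in fed mek-1 animals. ftn-1, the other ferritin gene, gave 1507 and 1376 in fasted mlk-1 animals, 379 and 363 in fed mlk-1 animals, 681 to 1133 in fasted mek-1 animals and 192 to 711 in fed mek-1 animals. Its change was 1.91 ± 0.50 in mlk-1 (adjusted p = 0.133) and 0.97 ± 0.41 in mek-1 (adjusted p = 0.249, limma). The metallothionein gene mtl-1 gave 4847 and 3735 in fasted mlk-1 animals, 3098 and 1625 in fed mlk-1 animals, 569 to 1862 in fasted mek-1 animals and 85.1 to 900.3 in fed mek-1 animals. Its spread within groups was wide, at a change of 0.92 ± 0.95 in mlk-1. With the replicate block, ftn-1 passed in mlk-1, and 5 of the 28 genes rose and 4 fell in mek-1. Over all 22548 probe sets the block gave 742 higher and 574 lower in mlk-1, and 1749 higher and 1523 lower in mek-1.

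**Figure D5:**
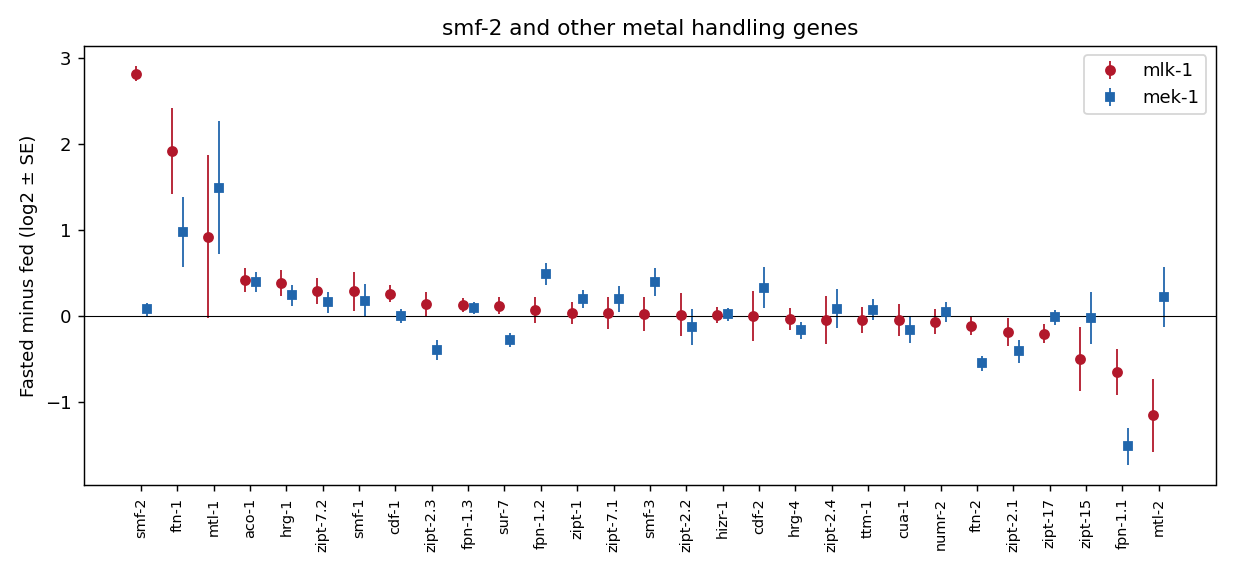
Log2 change with fasting (± SE of the limma fit) in mlk-1 (circles) and mek-1 (squares) for smf-2 and 28 other measured genes of metal handling, ordered by the change in mlk-1. smf-2 stands at 2.81 in mlk-1 and 0.07 in mek-1, and ftn-1 follows at 1.91 and 0.97.

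Stress and fasting gene lists were read for the same contrast. Of 23 measured genes of the intracellular pathogen response, a transcriptional programme against viruses and microsporidia, 3 rose and 0 fell with fasting in mlk-1, and in mek-1 0 rose and 1 fell. Over all probe sets 0.519% were higher and 0.852% lower in mlk-1, and 1.31% higher and 3.23% lower in mek-1. The Skp1-related genes skr-5 (1.31 ± 0.15, adjusted p = 0.00324) and skr-4 (0.71 ± 0.12, adjusted p = 0.0219) rose in mlk-1, as did pals-33 (0.85 ± 0.13, adjusted p = 0.0186, limma). In mek-1 these 3 changed by 0.22, -0.17 and 0.32, short of the threshold, and the difference between the strains passed in 0 of the 23 (5 higher and 0 lower at an unadjusted p, against 2.61% and 1.14% over all). The list's median change in mlk-1 was 0.17, against 0.04 over all probe sets. With the replicate block 4 of the 23 rose (skr-4, skr-5, pals-33 and pals-37) and 0 fell in mlk-1, against 742 and 574 of all 22548 probe sets. In mek-1 2 of the 23 then rose and 2 fell, against 1749 and 1523 of all. The skr-4 call was lost without any 1 of the mlk-1 arrays, with adjusted p from 0.0567 to 0.170. The pals-33 call was lost without mlk-1 fed array 1 (0.0740), mlk-1 fed array 2 (0.123) or mlk-1 fasted array 2 (0.154).

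Of 16 measured DAF-16 target genes, sod-3 rose and lys-8 and ins-7 fell with fasting in mlk-1. In mek-1 hsp-12.3 and hil-1 rose and lys-8 and ins-7 fell. Over all probe sets 0.519% were higher and 0.852% lower in mlk-1, and 1.31% higher and 3.23% lower in mek-1. The median change was 0.91 in mlk-1 and 0.13 in mek-1, against 0.04 in each strain over all probe sets. The median of the difference per gene was 0.18, and 0 of the 16 passed for it. At an unadjusted p, 3 of the 16 were higher and 0 lower for the difference, against 2.61% and 1.14% over all (limma). The list holds dod-6, whose values are given above and whose gap was 1.37. Its difference was 2.09 ± 0.42 (adjusted p = 0.342, limma). DAF-16 is the FOXO factor under insulin-like signalling. The list was not split by the direction in which DAF-16 acts on a gene, so nothing on DAF-16 activity is read from its medians. With the replicate block 7 rose and 3 fell in mlk-1, and 6 rose and 3 fell in mek-1. Over all 22548 probe sets the block gave 742 higher and 574 lower in mlk-1, and 1749 higher and 1523 lower in mek-1. sod-3 gave 275 and 227 in fasted mlk-1 animals, 125 and 128 in fed mlk-1 animals, 120.4 to 135 in fasted mek-1 animals and 116 to 147 in fed mek-1 animals. Its change was 0.90 ± 0.13 in mlk-1 (adjusted p = 0.0132) and the difference from mek-1 was 0.96 ± 0.17 (adjusted p = 0.198, limma). The sod-3 call was lost without mlk-1 fed array 1 (0.0586), mlk-1 fed array 2 (0.0923) or mlk-1 fasted array 1 (0.116). ins-7 fell by 2.51 ± 0.39 in mlk-1 (adjusted p = 0.0178) and by 2.13 ± 0.32 in mek-1 (adjusted p = 0.00697, limma). In mlk-1 it missed the threshold with a constant of 64 (0.0533) and without mlk-1 fed array 2 (0.138), mlk-1 fasted array 1 (0.144) or mlk-1 fasted array 2 (0.120). The lysozyme gene lys-8 fell in both strains, by 1.98 ± 0.13 in mlk-1 (adjusted p = 2.22e-04) and by 1.82 ± 0.11 in mek-1 (adjusted p = 7.99e-05, limma).

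Of 15 measured heat shock proteins, hsp-70 alone rose past the threshold in mlk-1, by 1.05 ± 0.13 (adjusted p = 0.00577, limma). It also rose in mek-1, by 0.74 ± 0.11 (adjusted p = 0.00625, limma). Without mlk-1 fasted array 1 the rise in mlk-1 missed the threshold (0.0740). In mek-1 hsp-17 fell by 1.98 ± 0.25 (adjusted p = 0.00269), hsp-25 by 0.66 ± 0.14 (adjusted p = 0.0303) and hsp-12.1 by 0.52 ± 0.11 (adjusted p = 0.0384, limma). The list's median change was 0.15 in mlk-1 and -0.16 in mek-1, against 0.04 in each over all probe sets. It leaves out hsp-12.6, hsp-16.41, hsp-12.3 and hsp-16.2, which were listed as DAF-16 targets. These changed by 1.66, 1.04, 0.99 and 0.96 in mlk-1, short of the threshold. In mek-1 they changed by 1.36, 0.65, 1.87 and 0.84, and hsp-12.3 alone passed. Over all probe sets 0.519% were higher and 0.852% lower in mlk-1, and 1.31% higher and 3.23% lower in mek-1. Of 21 measured fasting response genes, hacd-1 and far-7 rose and fil-1 and lipl-2 fell in mlk-1, with a median change of 0.27. In mek-1 acs-2, hacd-1 and far-7 rose and fil-2 and fat-7 fell, with a median change of 0.06. acs-2 changed by 3.05 ± 0.66 in mlk-1 (adjusted p = 0.0732) and by 2.92 ± 0.54 in mek-1 (adjusted p = 0.0184, limma). The mlk-1 calls of lipl-2, far-7 and fil-1 were lost in 8, 6 and 3 of 17 alternatives, with adjusted p up to 0.293, 0.229 and 0.129. All 3 were lost without mlk-1 fasted array 1 or 2, fil-1 also without mlk-1 fed array 1, far-7 and lipl-2 also without mlk-1 fed array 2, mek-1 fed array 2 or mek-1 fasted array 1 and with a constant of 64, and lipl-2 also without mlk-1 fed array 1 or mek-1 fed array 1. With the replicate block 4 of the 21 rose and 5 fell in mlk-1, and 6 rose and 6 fell in mek-1. Over all 22548 probe sets the block gave 742 higher and 574 lower in mlk-1, and 1749 higher and 1523 lower in mek-1. hacd-1, a hydroxyacyl-CoA dehydrogenase of fatty acid breakdown, rose in mlk-1 by 2.98 ± 0.34 (adjusted p = 0.00354) and in mek-1 by 2.38 ± 0.28 (adjusted p = 0.00196, limma). The difference between the strains passed in 0 genes of either list. At an unadjusted p, 2 were higher and 0 lower, and 1 higher and 1 lower, against 2.61% and 1.14% over all (limma). For hacd-1 the difference was 0.60 ± 0.44, against 2.24 to 5.68 for the probe sets of the 5 genes.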

How the data were processed

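Biotin-labelled 3' IVT target of Trizol-extracted total RNA was hybridised to 10 arrays, per the labels' protocols. The deposited values are linear intensities, 1 per probe set and array. Their summary and normalization by the authors are not given in the sources used here. The design had left the scale open, and log2(value + 16) was used, which compresses changes of dim probe sets. After 77 control probe sets were left out, 22548 remained (20766 with 1 gene symbol, 887 with several, 895 with none). Symbols came from the platform annotation, updated by gene ID from RefSeq (assembly WBcel235). The files name no genome build, so no coordinates are printed, and promoter and protein sequences were not used here.

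limma 3.58.1 (R 4.3.3) fitted a mean per group over the 10 arrays, with two-sided tests and Benjamini-Hochberg adjustment over every tested probe set (threshold 0.05). The script was tested on simulated data. Lists used the probe set with the highest mean of each gene. Genes were named by rule: the 5 genes, the 5 most similar profiles of each, the 10 largest gaps, 3 neighbours on each side, and up to 3 genes per list and direction. The 5 genes, the lists and the rule were chosen with earlier results of these data known. Genes named outside the rule were chosen after their values were seen. Within a strain, arrays with the same number deviated together (r = 0.440, 0.675 and 0.573 in mek-1, 0.352 in mlk-1), so the number was used as a block within strain, and as an additive term between strains. The number of arrays limits the precision. Alternatives tried were constants of 1 and 64, centring on medians, quantile normalization, dropping the dimmest 30% of probe sets, a trended robust variance, the block, and leaving out each array.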

Additional observations from a re-analysis of the deposited data

Results flagged for a closer look

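The change with fasting differed between mlk-1 and mek-1 in all 6 probe sets of the 5 genes, by the difference of the changes (mlk-1 minus mek-1, log2). It was 5.68 for clx-1, 3.57 for Y57E12B.1, 2.74 for smf-2, 2.24 and 2.63 for the probe sets of Y57E12B.4, and 2.44 for H02F09.3. The genes were chosen for this difference, so it is given as a description. Groups of 2 and 3 arrays were too small to look for single outlying arrays.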

How the results depend on the processing

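With the replicate block, 1316 probe sets were called for fasting in mlk-1, 3272 for fasting in mek-1, 50 for the difference of the changes, 1033 between strains in fasted animals and 427 in fed animals. With a constant of 64, 13 probe sets had a gap of at least 1, since the constant itself compresses changes of dim probe sets. Leaving out 1 array gave 100 to 444 calls for fasting in mlk-1, 465 to 1029 in mek-1, 6 to 30 for the difference, 37 to 457 between strains in fasted and 55 to 134 in fed animals, 21 to 34 probe sets with a gap of at least 1 and 1807 to 3995 with a gap above 0. Counts moved over 1.5 times for fasting in mlk-1 without either mlk-1 fasted array, mlk-1 fed array 2 or mek-1 fasted array 1 (100 to 200), in mek-1 without mek-1 fed array 1 or mek-1 fasted arrays 1 or 2 (465 to 553), between strains in fasted animals without any 1 fasted array (37 to 181), and in fed animals without either mlk-1 fed array, mek-1 fasted array 1 or mek-1 fed array 1 (55 to 87). The cause was not tested. Under every setting in which a gap was computed, each of the 6 probe sets that was tested kept a gap of at least 1. The probe set of Y57E12B.4 without an _s_at ending was left out with the dimmest 30%. The difference of the changes ran from 4.99 to 5.98 for clx-1, 2.50 to 4.30 for Y57E12B.1, 1.98 to 3.17 for smf-2, 1.45 to 2.77 and 1.73 to 3.25 for Y57E12B.4, and 2.04 to 2.79 for H02F09.3. With 2 mlk-1 arrays per group, leaving out 1 assumes that the remaining array varies like the others.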

Other observations

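Few probe sets showed the opposite difference, with a change in mlk-1 below that in mek-1, and both that pair with 1 gene were high in fed mlk-1 animals alone. They were chosen after their values were seen. F55G11.8 gave 23.6 and 33.1 in fasted mlk-1 animals, 207 and 394 in fed mlk-1 animals, 16.6, 16.02 and 17.98 in fasted mek-1 animals and 18.6, 24.3 and 21.5 in fed mek-1 animals. The difference of its changes was -2.59 ± 0.31 (adjusted p = 0.0278, limma). F49F1.5 gave 38.2 and 40.8 in fasted mlk-1 animals, 95.4 and 107 in fed mlk-1 animals, 35.7, 36.2 and 37.4 in fasted mek-1 animals and 34.5, 29.7 and 32.5 in fed mek-1 animals. Its difference was -1.198 ± 0.11 (adjusted p = 0.00891, limma). The remaining probe set pairs with several symbols and had the largest opposite difference, -4.83 ± 0.52 (adjusted p = 0.0167, limma). It gave 966 and 2284 in fed mlk-1 animals and 25.8 to 60.6 on the other arrays.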
